A study of Mus musculus with 8 samples.

Results

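Ang4, Mptx1, Reg3g and Muc13 are 4 genes of mucosal defence in the colon. Their peaks of N6-methyladenosine (m6A) signal were listed as differing after deletion of Mettl14. The genes were selected on the measured genotype difference, as rows of the authors' deposited table of differential m6A peaks that bear one of these names. This gave 5 peaks on 4 genes, of 195 peaks on 168 genes in the table. The table holds peaks that passed the authors' test for a genotype difference, at a false discovery rate (FDR) of 0.05 or less, so that a listed difference is how the genes were found and is given as a description, with no test. The genes were picked in view of both signs, 2 genes with negative and 2 with positive values, so this split is no finding either. Mucosal defence names what these genes are known for and was not measured here.

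Colonic epithelial cells came from untreated C57BL/6 mice in week 6 after birth. The knockout carried Mettl14 f/f and CDX-cre, with 3 m6A immunoprecipitates and 1 input library of total RNA, and the control was Mettl14 f/f, also with 3 immunoprecipitates and 1 input. Both genotypes thus carry the floxed alleles and, by their labels, differ in the Cre transgene, named for the Cdx family of intestinal homeobox factors. A group with the transgene alone was not analysed here. Nothing in the labels says whether replicates came from separate animals. The labelled cell type could not be checked, because the table lists differences rather than levels: 0 of 12 colonic epithelial markers had a listed peak. Of 8 macrophage markers 3 had one, the complement genes C1qa, C1qb and C1qc, all positive (log2 fold changes of 1.92 to 2.47). Listed peaks were found for 0 of 5 Paneth cell, 0 of 6 neutrophil, 0 of 5 B and plasma cell and 0 of 4 T cell markers. The part of other cell types in the values below was not tested. Xist, the RNA of the inactive X chromosome in females, had listed peaks at log2 fold changes of -2.61, -2.43 and -2.83. Whether the sex of the mice differed between the groups was not tested.

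The colon keeps bacteria away from its surface with a secreted mucus gel, with antimicrobial proteins released into that gel, and with mucins anchored in the apical membrane of epithelial cells. Ang4 is a secreted ribonuclease of the angiogenin family with antibacterial activity, made in mice by Paneth cells and goblet cells. Mptx1 is a mucosal pentraxin, of the family of C-reactive protein. Reg3g is a secreted C-type lectin that binds the peptidoglycan of Gram-positive bacteria, and its production rises with microbial signals and with the cytokine IL-22. Muc13 is a transmembrane mucin of the epithelial glycocalyx. METTL14 is the RNA-binding partner of METTL3 in the complex that writes m6A, a mark found in many mRNAs around the stop codon and in the 3′ untranslated region.

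A peak in the authors' deposited table has 1 value of each kind and none per sample. Its enrichment is the immunoprecipitate divided by the input, a fold on a linear scale, with a p-value. The genotype difference is a log2 fold change with an FDR, and the coordinates are split into blocks that leave out introns. No replicate spread or depth can be attached to any of them. Which genotype is on top of the fold change is not stated. The column names look like those of exomePeak, which puts the treated arm on top, but the software is not named. If it was used, a positive value likely means knockout over control. Values are called positive or negative as deposited. A difference in m6A and a difference in the amount of RNA, or in the number of cells that make it, cannot be told apart from these values.

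The secreted lectin gene Reg3g had the only sequence that could be read here, the first 27 bases of its transcript, and it is shown because the first block of one of its peaks is exactly this stretch. The block lies at chr6:78468848-78468874 on the minus strand (mm10), and its RefSeq sequence (build GRCm38.p6, another name for mm10) is given 5′ to 3′ with the 27 block bases in capitals and the next 3 bases of the gene in lower case.
Reg3g first block: ACACCATCCTAGGGATCTGCAAGACAGgta
The block began at the RefSeq 5′ end of Reg3g, and the bases right after it begin with GT, the letters with which most introns start. Of 32851 RefSeq start sites, 4.97% have GT right after base 27. Blocks leave out introns and a gap follows this block, so the GT is no separate finding. Read 5′ to 3′ as printed, the block holds 0 matches to GGACT, a common form of the m6A consensus, and 0 to GGAC, letters that GGACT contains. It holds 1 match, AGACA, to the broader m6A consensus, which has AAC or GAC in the middle, any base but C before it and any base but G after it. Among the first 27 bases after all RefSeq start sites, 2.85% hold GGACT, 9.96% hold GGAC and 34.0% hold a match to the broader consensus. The core GAC occurs 1 time in the block, inside AGACA, and 29.5% of those start windows hold it. The sequence of the other 6 blocks was not analysed here, so these letters describe the first block and not the peak.

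Ang4 and Mptx1, both secreted, were the genes with negative values. In the authors' deposited table the Ang4 peak had a log2 fold change of -1.32, a 2.5-fold difference (FDR 7.4e-06). The Mptx1 peak stood beside it at -1.28, a 2.43-fold difference, with a far smaller FDR of 3.2e-17 in the authors' deposited table. No other listed peak lay between these 2 values. Within the 75 negative peaks they were the 41st and 42nd largest in size, near the negative median of -1.46, so neither was extreme by size. By p-value of the genotype difference Mptx1 was 4th of all 195 peaks, and Ang4 was 31st.

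Reg3g and Muc13 had the positive values. Reg3g had 2 listed peaks in the authors' deposited table, one at the 3′ end of the gene with a log2 fold change of 1.98, a 3.94-fold difference (FDR 7.6e-05), and one at the 5′ end with 1.49, a 2.81-fold difference (FDR 0.00083). Both ends of this transcript therefore had the same sign. The values differed by 0.49, close to the median range of 0.505 within the 22 genes that had over 1 listed peak. Ranges ran from 0.03 to 1.68, and in each of these 22 genes all listed peaks had the same sign, so Reg3g is no exception. Muc13, the membrane mucin, was at 0.35 in the authors' deposited table, a 1.27-fold difference with an FDR of 0.03. It was the smallest of the 120 positive values and the only one of the 5 peaks with an FDR above 0.01 or an absolute log2 fold change below 1. In the whole list, 53.3% of peaks had an FDR of 0.01 or less and 71.3% an absolute log2 fold change of 1 or more. Of the 5 peaks 3 were positive and 2 negative, as the choice of genes fixed, against 61.5% positive and 38.5% negative peaks in the whole list.

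**Figure D1:**
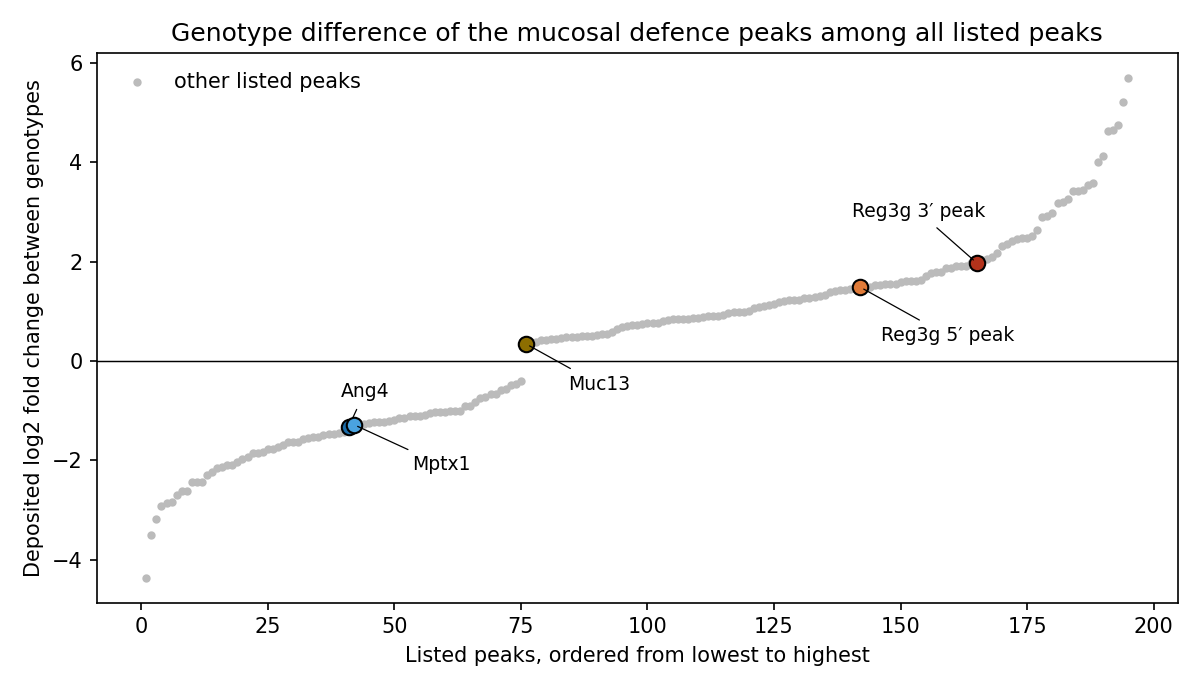
Deposited log2 fold change between genotypes (y axis) of all 195 listed peaks, ordered from lowest to highest (x axis), with each point 1 peak and the 5 mucosal defence peaks coloured. Ang4 and Mptx1 lie next to each other at -1.32 and -1.28, Muc13 is the lowest positive peak at 0.35, and the Reg3g peaks lie at 1.49 and 1.98.

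The genes nearest in the size of the difference were found by rank. Likeness was measured as the absolute difference in log2 fold change in the authors' deposited table, over a single contrast, and the 2 nearest genes on each side were taken. For the 3′ peak of Reg3g these were the chemokine gene Ccl9 at 1.97, C1qa at 1.92, Sh3kbp1 at 2.04 and Basp1 at 2.05. For its 5′ peak they were the transcription factor gene Tcf7l1 at 1.49, the guanylate kinase gene Guk1 at 1.47, Cep63 at 1.5 and Anxa8 at 1.53. Ang4 and Mptx1 had each other as a neighbour, at a distance of 0.04. Around them stood Mfap3l and the apolipoprotein gene Apob, both at -1.26, the monocarboxylate transporter family gene Slc16a9 at -1.42 and the somatostatin receptor gene Sstr1 at -1.44. Slc16a9 had another listed peak at -1.56, and Sstr1 had others at -1.97 and -1.1. Muc13 had Eif5b at 0.38 and the galactosyltransferase gene B3galt5 at 0.38 above it, while the next values below were negative, the proliferation marker Mki67 at -0.41 and Aoc1 at -0.47. Near values in 1 contrast say nothing of a shared control.

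All 5 peaks were among the weakly enriched ones of the list, whatever their sign. In the authors' deposited table, enrichment over input was 1.58-fold for Ang4, 2.5-fold for Mptx1, 2.59-fold for the 5′ and 1.42-fold for the 3′ peak of Reg3g, and 2.15-fold for Muc13. All 5 of these 5 were below 4.43-fold, the median of all 195 peaks, against 49.2% of the listed peaks. A total of 40 peaks, 20.5% of the list, were enriched no more than 2.59-fold, of which 23 were positive and 17 negative. The 3′ peak of Reg3g tied with 1 other peak for the lowest enrichment in the authors' deposited table, and Ang4 had 3 peaks below it. Enrichment thus did not separate the genes by sign, as the lowest values belonged to Reg3g on the positive and Ang4 on the negative side.

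Reg3g combined the weakest enrichment with a large difference. Its 3′ peak was the 31st most positive peak, and the other 30 peaks of that rank or above were enriched at least 4.15-fold in the authors' deposited table, with a median of 16.7-fold over all 31. This limit was set by the rank of Reg3g itself, so the contrast is a description. Its enrichment p-value was also one of the weakest, with a log10 of -3.55, where the weakest in the table was -3.19. The 5′ peak of Reg3g had more enrichment, 1.82 times that of the 3′ peak, and a log10 p-value of -15.0.

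For Mptx1 and Muc13, a low ratio went with a small p-value. The log10 p-value of enrichment in the authors' deposited table was -53.8 for Mptx1 and -38.8 for Muc13, against -7.36 for Ang4. Of the 40 peaks enriched no more than 2.59-fold, 0 had a smaller enrichment p-value than Mptx1 and 2 had a smaller one than Muc13. By enrichment, 17.5% of the other listed peaks were below Mptx1 and 11.3% below Muc13, and by p-value 82.0% and 67.5% were. Such a p-value depends on the number of reads as well as on the ratio, and read numbers are not given in the table. Ang4 stayed low by both measures, with 1.55% of the other peaks below it by enrichment and 10.8% by p-value.

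**Figure D2:**
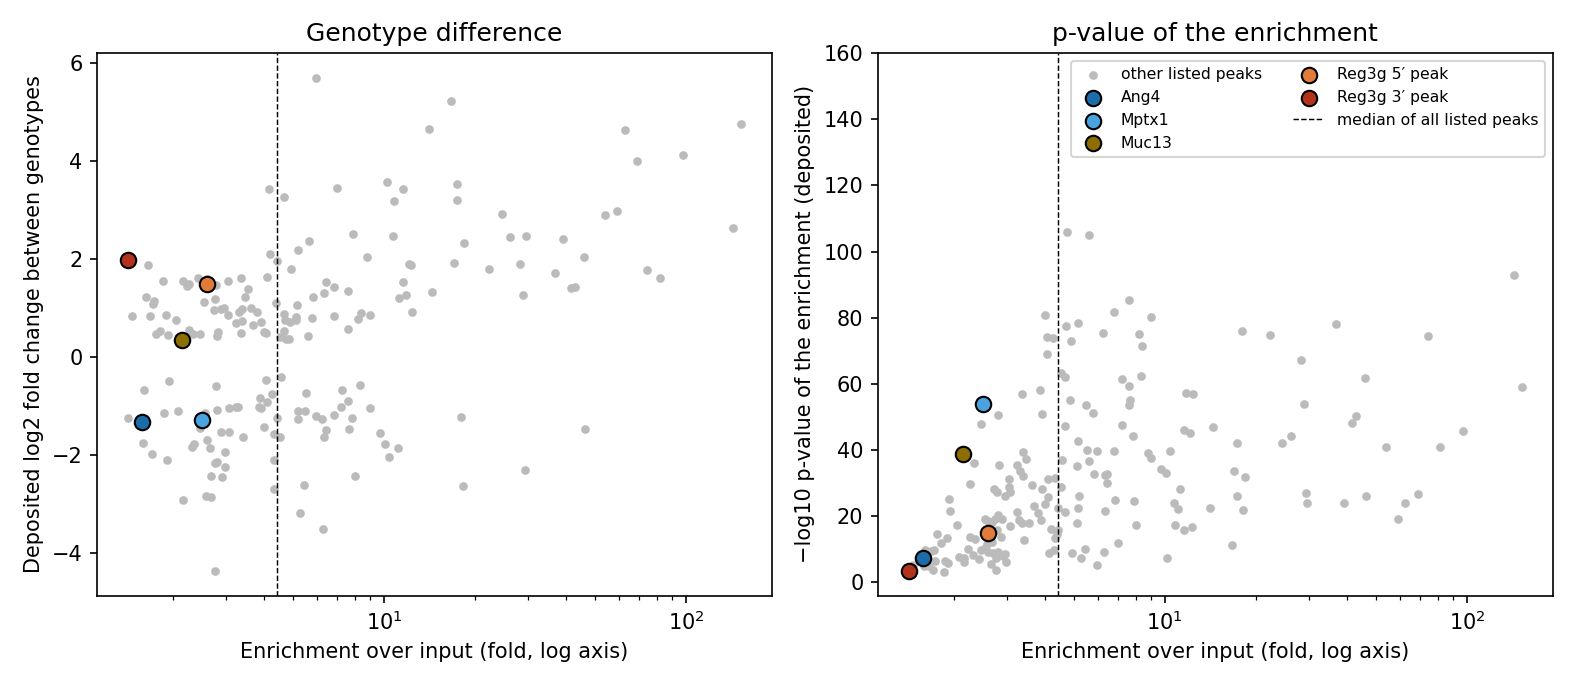
Enrichment over input (x axes, fold on a log scale) of the 195 listed peaks against the deposited log2 fold change between genotypes (left) and against the −log10 p-value of the enrichment (right), with 1 point per peak, the 5 mucosal defence peaks coloured and a dashed line at the median enrichment of 4.43-fold. All 5 coloured points lie left of that line, and on the right Mptx1 and Muc13 lie high for their enrichment, with −log10 p-values of 53.8 and 38.8.

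Most of these peaks lay near the 3′ end of their gene, on either sign. Of the 5 peaks, 4 were single blocks in the authors' deposited table, and each of the 4 ended within 289 nt of the RefSeq 3′ end. The Ang4 peak (chr14:51764181-51764413, minus strand) was 233 nt wide and ended 289 nt before the 3′ end of a gene that spans 9699 nt. The Mptx1 peak (chr1:174332283-174332699, plus strand) was 417 nt wide, ended 178 nt before the 3′ end and took up 17.7% of the short gene span of 2360 nt. The 3′ peak of Reg3g (chr6:78466357-78466476, minus strand) ended 88 nt before the 3′ end and was 120 nt wide, with 1 narrower peak in the whole list. The Muc13 peak (chr16:33818938-33819777, plus strand) was the widest of the 5 at 840 nt and ended 152 nt before the 3′ end. It started 24901 nt and 24449 nt from the 2 RefSeq start sites of that gene. The gene spans are those of RefSeq and include introns, and whether these blocks are coding or untranslated was not analysed here.

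Measured from the gene's 5′ end, the midpoints of the 4 single blocks were at 95.8% of the span for Ang4, 83.6% for Mptx1, 94.3% for the 3′ peak of Reg3g and 97.8% for Muc13. Of the 5 peaks, 4 ended inside the gene within 1000 nt of its 3′ end, against 32.8% of all 195 listed peaks. Among listed peaks of 1 block, 19 of the 30 positive and 15 of the 63 negative ones did so. Mptx1 and Reg3g span only 2360 nt and 2606 nt, so this window covers a large part of them. Of the 4 single blocks 2 were positive, against 32.3% of the 93 peaks of 1 block in the list, whose median midpoint was 90.9% for the 30 positive and 94.1% for the 63 negative ones. The median width of 1-block peaks was 728.5 nt for positive and 449 nt for negative ones. Muc13 was above the positive median and the 3′ peak of Reg3g far below it, while Ang4 and Mptx1 were both below the negative one.

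The 5′ peak of Reg3g was the exception in layout. It ran over chr6:78467847-78468874 on the minus strand and took up 39.4% of the gene span of 2606 nt, but its 3 blocks added up to 179 nt. From the 5′ end, the blocks were 27 nt (the stretch printed above), 81 nt and 71 nt long, with gaps of 280 nt and 569 nt between them. Between the end of this peak and the start of the 3′ peak lay 1370 nt of the gene in which the table lists no peak. Starting exactly at the RefSeq 5′ end was shared by 26 listed peaks, 13.3% of the list, of which 25 were positive and 1 was negative. Of the 39 peaks with 3 blocks, 38 were positive.

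**Figure D3:**
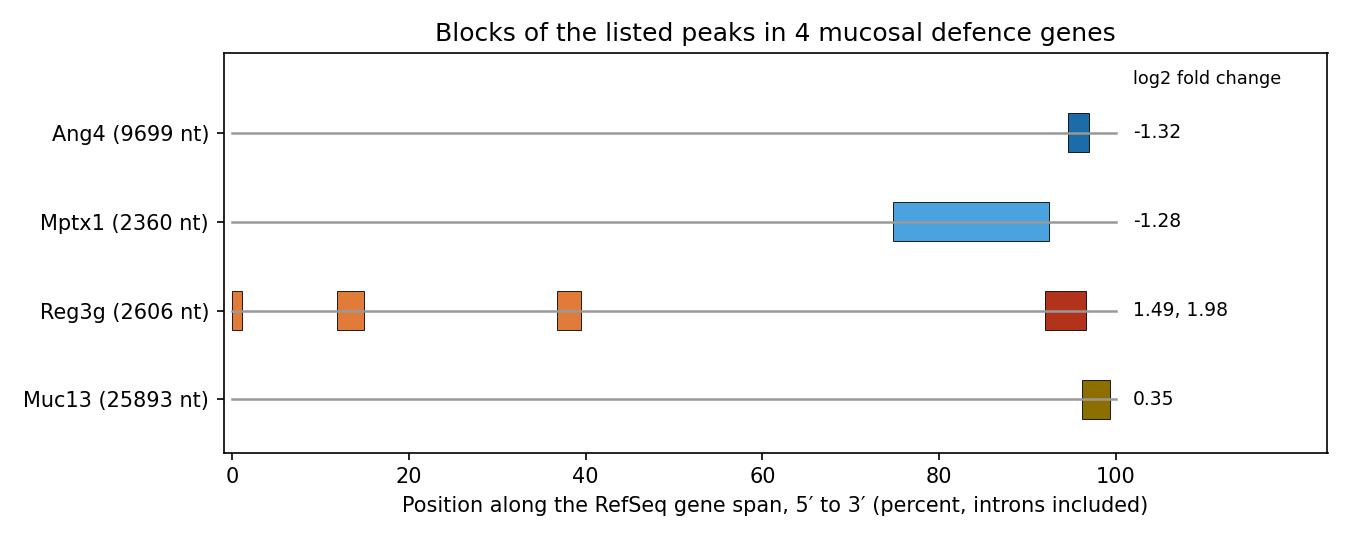
Blocks of the 5 listed peaks (boxes, coloured by peak) along the RefSeq span of each gene (grey line, x axis in percent of the span from 5′ to 3′, introns included), with the log2 fold changes on the right from the 5′ to the 3′ peak. Ang4, Mptx1 and Muc13 have a single block late in the gene, and Reg3g has 3 blocks in the 5′ part and 1 block near the 3′ end.

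In 6 lists of mucosal defence genes with 89 distinct members, 7 genes were listed, 5 positive and 2 negative, and 4 of the 7 were Ang4, Mptx1, Reg3g and Muc13 themselves. Of the 85 other genes 3 were listed, or 3.53%, against 0.74% of all RefSeq protein-coding genes. The latter were not limited to genes expressed in the colon, so the 2 sets are unlike. The lists also hold 2 names that match no RefSeq gene by current or older symbol. Because the lists were written with earlier results of this table known, these counts are not independent evidence. The 3 were Slpi, a secreted inhibitor of leukocyte proteases with antimicrobial activity, Sprr1a, a small proline-rich protein, and Lrg1, a secreted acute-phase glycoprotein. All 3 were positive in the authors' deposited table, at log2 fold changes of 3.43 for Slpi (FDR 6e-05), 2.18 for Sprr1a and 4.76 for Lrg1, with more enrichment (5.18 to 152-fold) than any of the 5 peaks above.

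By family, the only listed gene of 7 Reg lectins was Reg3g, of 10 ribonucleases of the RNase A family Ang4, of 7 pentraxins Mptx1, and of 14 membrane mucins and glycocalyx genes Muc13. Of 18 goblet cell and mucus genes only Ang4 and Mptx1 were listed, and the gel-forming mucin gene Muc2 was not. A gene that is not listed may have missed the authors' threshold or had no peak to test, and the table does not separate these. The listed peak of another gene nearest to Ang4 was that of Apex1, a DNA repair endonuclease, 0.839 Mb away on chromosome 14 and positive at 1.23, opposite in sign to Ang4. No other gene had a listed peak within 1 Mb of Mptx1, Reg3g or Muc13.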

How the data were processed

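The only file was the authors' deposited table of differential m6A peaks. Per the submitters' processing notes, R 3.6, HOMER 4.10.0, HISAT2 2.1.0 and Trim Galore 0.6.5 were used on mm10. No source at hand names the peak caller or says how replicates were combined. The column names only look like those of exomePeak, and the headers name no software. Per the file headers, the deposited values are a linear fold ratio of enrichment, its p-value (the score column of the deposited table) with log10 columns, the log10 p-value and FDR of the genotype difference, and its log2 fold change. The file holds no sample column, so depth is unknown. Here log10 values were turned back into linear ones, coordinates were written 1-based, names were matched to RefSeq GRCm38.p6 (164 as current symbols, 4 as older names, 0 unmatched), and ranks, blocks and positions were computed with Python 3.11.15, pandas 2.3.3 and numpy 2.4.6. The rank function was tested on simulated data. Named genes were the 4 members, the 2 nearest genes on each side in log2 fold change, list genes with a listed peak and peaks within 1 Mb. Xist was added after the values were seen. Members and lists were chosen with earlier results of these data known. No test was run.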

Additional observations from a re-analysis of the deposited data

How the results depend on the processing

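Muc13 dropped out at an FDR limit of 0.01 or a minimum size of 1 in log2 fold change, which left 3 genes with 4 peaks either way. Places in the list, as the percent of other listed peaks below, moved beyond the exact 95% binomial interval as follows. That interval served only as a yardstick for a large move. The places are exact ranks in 1 fixed list, so it measures no sampling error and is no test. By the −log10 p-value instead of the enrichment, Mptx1 was at 82.0%, Muc13 at 67.5%, Ang4 at 10.8% and the 5′ peak of Reg3g at 27.3%; against peaks with as many blocks, that Reg3g peak was at 28.9%. By genomic span instead of block width, Mptx1 was at 18.0%, Muc13 at 38.7%, Ang4 at 6.19%, and the Reg3g peaks at 44.8% (5′) and 0.0% (3′), since spans include introns. By distance to the 3′ end instead of midpoint, Mptx1 was at 83.0%, Muc13 at 83.5%, and the Reg3g peaks at 57.7% (5′) and 88.7% (3′); the cause was not tested. Listed genes of the 6 lists numbered 3 without the 4 members, by construction. With the broader consensus described below, 16 of 38 alternative values moved. The other 22 stayed within these limits, and they include the counts without Muc13 given first. No paired analysis was possible because each peak has 1 value for all libraries together, which is also why no replicate was left out. The consensus search was run on the first block of Reg3g alone; the broader consensus, added after seeing the data, gave 1 match there in place of 0, since it allows more letters.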

Other observations

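Among the 10 least enriched peaks in the authors' deposited table, chosen after the values were seen, 5 were positive and 5 negative, and 2 belonged to the mucosal defence genes (Reg3g and Ang4). The peak that tied with Reg3g at 1.42-fold was that of Pck1, the gluconeogenic enzyme, at a log2 fold change of -1.23, so the same enrichment went with opposite signs.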
